A study of Mus musculus with 12 samples.

Results

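The Myc, Max and Mxd network consists of transcription factors that share a basic helix-loop-helix leucine zipper and compete for 1 common partner. The members were the 10 rows of the deposited expression table whose gene name was Myc, Mycn, Mycl, Max, Mxd1, Mxd3, Mxd4, Mxi1, Mnt or Mga, of 19439 rows in all, and each of the 10 names was found. They were measured in 2 lines of 3T3 mouse embryonic fibroblasts, immortalised by serial passage. The lines were labelled wildtype p53 (WT) and p53 -/- (p53-null), and p53 is the stress-responsive transcription factor encoded by Trp53. Both lines were kept in DMEM, a standard culture medium, with 25 mM glucose, and before harvest each spent 18 h in medium with 2 mM L-glutamine (complete) or with none (glutamine-free). This gave 4 groups of 3 samples. Each genotype was 1 line, so that a difference between genotypes cannot be told apart from any other difference between these lines. The labels do not say that the samples of a group came from separate cultures. The p-values therefore reflect the spread of these samples alone, which may be technical.

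As background, Myc, Mycn and Mycl encode activators that bind DNA only as dimers with Max, at the E-box sequence CACGTG. The Mxd proteins, Mxi1 and Mnt also dimerise with Max, occupy the same sites and recruit Sin3 corepressors, and Mga joins Max within a Polycomb complex. In dividing fibroblasts Myc supports ribosome production, nucleotide synthesis and glutamine use, while Mxd genes are known from cells that leave the cell cycle.

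Values are RPKM, read counts scaled by gene length and by the mapped reads of the sample. Because RPKM is divided by gene length, levels of different genes can be set side by side. Summed RPKM ran from 284426 to 319735 over the samples. Read depth is known only roughly, since the spacing of low values did not recover whole reads. Trp53 was 57.8 to 59.0 RPKM in WT and 27.9 to 29.6 RPKM in p53-null samples in complete medium, and 109.4 to 113.9 against 33.9 to 35.2 RPKM in glutamine-free medium, which checks the direction of the genotype labels but not the allele. Fibroblast genes dominated the marker lists. Their summed level was 4234 to 4253 RPKM in WT complete, 1057 to 1064 in WT glutamine-free, 2568 to 2607 in p53-null complete and 1495 to 1522 RPKM in p53-null glutamine-free samples. Thy1, Lum and Fap averaged under 1 RPKM in every group. Much of the p53-null sum was Vim, at 1730 RPKM in p53-null against 760 RPKM in WT complete samples. Postn, Thy1 and Fap also averaged higher in p53-null complete samples. The other listed fibroblast genes averaged lower, among them Col1a2 (29.5 against 711.6 RPKM), Dcn (18.0 against 471.6 RPKM) and S100a4 (19.3 against 944.6 RPKM). Of 7 epithelial markers, Krt18 and Krt19 averaged 59.6 and 17.5 RPKM in the p53-null complete group, where the whole list summed to 77.3 to 78.6 RPKM against 0.186 to 0.288 RPKM in WT complete samples. In glutamine-free medium it summed to 82.6 to 84.8 RPKM in p53-null and 0.116 to 0.147 RPKM in WT samples. The other 5 epithelial markers, Epcam and Cdh1 among them, averaged under 1 RPKM in every group. Blood, endothelial and muscle or neural markers summed to at most 16.5, 1.58 and 39.9 RPKM in any sample. In bulk samples, fewer cells of a type and less RNA per cell cannot be told apart.

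Since Myc-Max and Mxd-Max dimers both bind the E-box, the promoters of the members were searched for it. In the RefSeq table for GRCm38.p6, with windows of 250 bases before to 50 after a gene's start, 9 members had an entry, all but Myc. The motif CACGTG, which reads the same on both strands, was found in 1 window each of Mxd4, Mnt and Max, 3 of 11 windows of the members, against 7.15% of 32851 windows in the table. The 3 stretches are printed 5′ to 3′ on the strand of the gene, with the E-box in capitals. The Mxd4 stretch is at chr5:34187879-34187960 (minus strand), the Mnt stretch at chr11:74830731-74830851 (plus strand), and the Max stretch at chr12:76962222-76962321 (minus strand), where the E-box spans the start in the RefSeq table and lies upstream of the GENCODE start at 76962201.
Mxd4: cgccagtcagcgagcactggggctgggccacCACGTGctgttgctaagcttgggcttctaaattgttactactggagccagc
Mnt: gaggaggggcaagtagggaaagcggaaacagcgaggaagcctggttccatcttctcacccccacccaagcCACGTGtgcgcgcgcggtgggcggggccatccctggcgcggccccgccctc
Max: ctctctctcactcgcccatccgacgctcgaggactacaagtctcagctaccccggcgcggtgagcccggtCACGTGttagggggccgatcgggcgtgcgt
Such a match is a run of letters and not a measured binding site. The 3 genes that carry it did not move alike, since Max and Mnt rose without glutamine in both lines and Mxd4 fell in WT and rose in p53-null cells.

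Removing glutamine from WT cells raised Myc and Mycl, their partner Max and the large repressors Mnt and Mga, and lowered each of the 4 Mxd-type genes. Of the 9 members that passed the filter on low values (at least 1 RPKM in at least 3 samples), 5 rose and 4 fell at an adjusted p under 0.05 in limma, where 46.0% of 11461 tested genes rose and 44.0% fell. With so many genes past that threshold, size says more than the call: Myc and Mycl rose and Mxd3 and Mxd4 fell by 2-fold or more in log2(RPKM + 1), as did 9.75% (up) and 12.9% (down) of tested genes. The median log2 change was 0.01 over all tested genes. Over the 9 members it was 0.43, the value of Mnt, the smallest of the 5 rises. Mycn did not pass the filter.

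**Figure D1:**
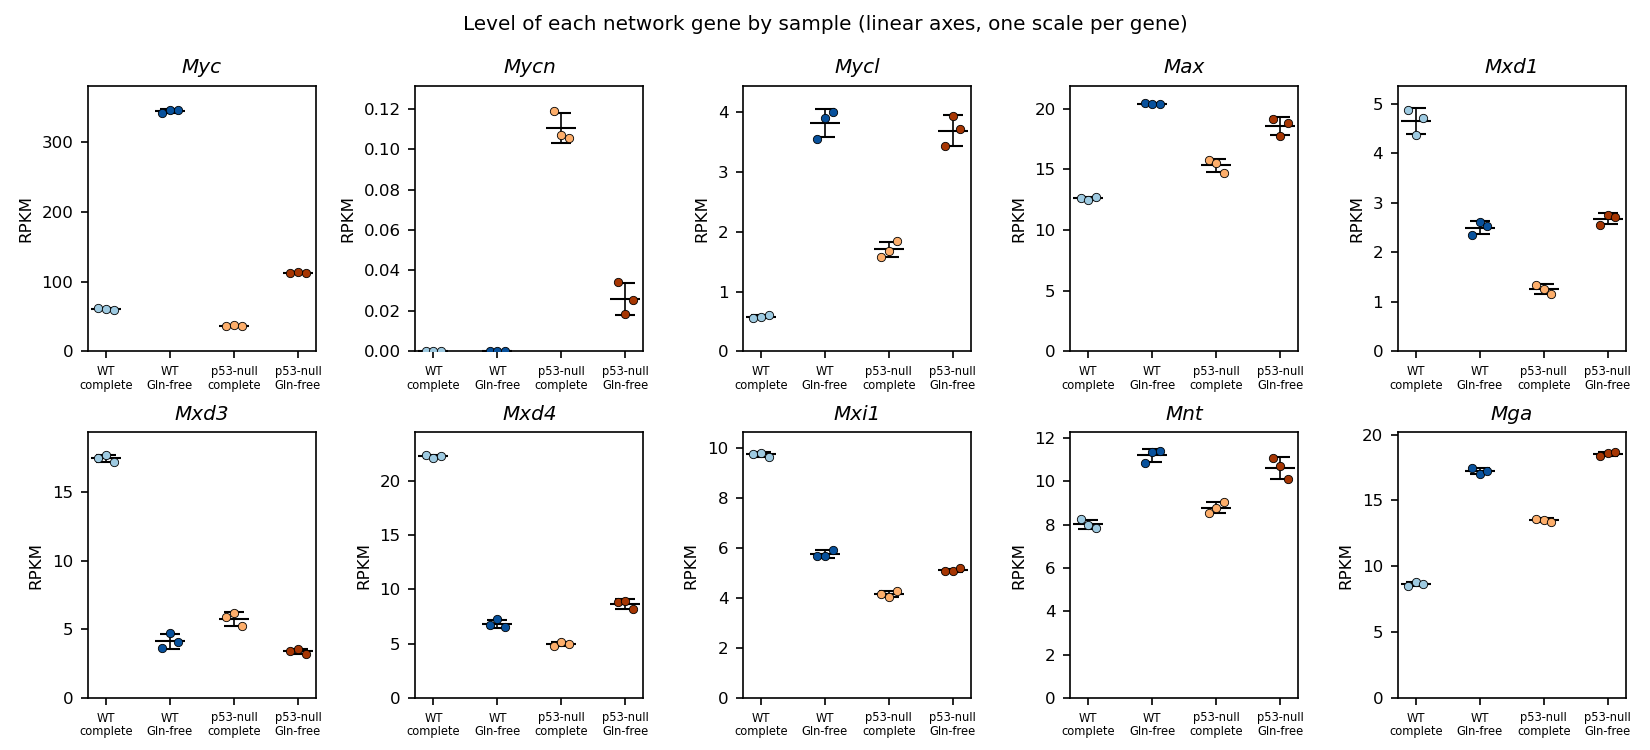
RPKM of the 10 network genes in each of the 12 samples, with a linear axis from 0 for each gene. Points are samples, horizontal marks are means and bars are the SD (n = 3). Myc is highest in the WT glutamine-free samples, at 342 to 346 RPKM, whereas Mxd3, Mxd4, Mxd1 and Mxi1 are highest in the WT samples in complete medium.

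Myc (chromosome 15, 61985391 to 61990374, plus strand, mm10) was the most abundant member in every group. In WT cells it was 61.6, 61.0 and 59.4 RPKM in complete and 342, 346 and 346 RPKM in glutamine-free medium. In p53-null cells it was 35.9, 38.2 and 37.1 RPKM in complete and 112, 114 and 113 RPKM in glutamine-free medium. The 4 groups did not overlap: p53-null complete was lowest, then WT complete, p53-null glutamine-free and WT glutamine-free. Mean RPKM rose 5.68-fold in WT and 3.04-fold in p53-null cells, with log2 changes of 2.49 ± 0.021 (SE, limma adjusted p = 9.2e-18) and 1.58 ± 0.021 (adjusted p = 6.7e-15). The response of the p53-null line was smaller by 0.90 ± 0.029 on the log2 scale (adjusted p = 9.1e-12).

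Mycl (chromosome 4, 122995652 to 123002485, plus strand), a paralog with a weaker transforming activity, was far less abundant. It was 0.555, 0.584 and 0.607 RPKM in WT complete and 3.56, 3.91 and 4.0 RPKM in WT glutamine-free samples. The p53-null samples held 1.59, 1.69 and 1.84 RPKM in complete and 3.43, 3.94 and 3.73 RPKM in glutamine-free medium. The lines thus differed in complete medium and overlapped without glutamine. Mycl rose 6.57-fold in mean RPKM in WT and 2.17-fold in p53-null cells (log2 changes 1.61 ± 0.049 and 0.80 ± 0.049, limma adjusted p = 1.8e-12 and 6.6e-09). A pseudocount of 0.1 in place of 1 gave 2.52 for the WT change, since the scale understates changes of genes near 1 RPKM.

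Mycn (chromosome 12, 12936093 to 12941914, minus strand), the paralog best known from embryonic tissue and neuroblastoma, was listed at 0 in each of the 6 WT samples. In p53-null cells it was 0.119, 0.107 and 0.106 RPKM in complete and 0.0342, 0.0183 and 0.0255 RPKM in glutamine-free medium. These values are well under the 1 RPKM of the filter, so Mycn was not in the main fit. With no filter on low values all 10 members were tested, with the calls of the other 9 unchanged. Then 2 rather than 1 were lower on withdrawal in p53-null cells, and 6 rather than 5 lower in the contrast of responses. In the p53-null line 5 rather than 4 were higher than in WT in complete medium, and 3 rather than 2 in glutamine-free medium. Myc made up 95.3 ± 0.280% (SD, n = 3) of the summed RPKM of the 3 paralogs in p53-null complete samples, its lowest share, and 99.05 ± 0.0591% in WT complete samples, its highest.

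Max (chromosome 12, 76937269 to 76962201, minus strand), the obligate partner, moved less than Myc. It was 12.7, 12.5 and 12.7 RPKM in WT complete and 20.4 RPKM in each of the 3 WT glutamine-free samples. The p53-null samples held 15.7, 15.5 and 14.7 RPKM in complete and 19.1, 17.8 and 18.8 RPKM in glutamine-free medium. All 4 groups were separate, and the order from low to high was WT complete, p53-null complete, p53-null glutamine-free and WT glutamine-free. Its log2 change was 0.65 ± 0.028 in WT and 0.26 ± 0.028 in p53-null cells (limma adjusted p = 6.1e-11 and 1.6e-06), and the p53-null value was 0.13 with quantile normalization and 0.16 with median centring.

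The Mxd-type genes encode short proteins that pair with Max and bring in Sin3. Mxd4 (chromosome 5, 34173883 to 34187720, minus strand) was the most abundant of them in WT complete medium. It went from 22.4, 22.1 and 22.3 RPKM to 6.70, 7.24 and 6.56 RPKM in WT cells on withdrawal. The p53-null samples went from 4.82, 5.17 and 4.97 RPKM to 8.84, 8.97 and 8.15 RPKM. The WT samples thus fell to 30.7% of their mean level in complete medium, while the p53-null samples started below that level and rose 1.74-fold. The log2 changes were -1.57 ± 0.039 and 0.69 ± 0.039 (limma adjusted p = 1.9e-13 and 2.5e-09). Their difference, 2.26 ± 0.055 (adjusted p = 6.4e-13), was the largest in size among the 9 tested members.

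Mxd3 (chromosome 13, 55325168 to 55329823, minus strand) differs from its relatives in being known from S phase and proliferating cells. It went from 17.5, 17.7 and 17.2 RPKM to 3.64, 4.70 and 4.04 RPKM in WT cells. In p53-null cells it went from 5.88, 6.18 and 5.22 RPKM to 3.39, 3.60 and 3.19 RPKM. Mxd3 was the single tested member that fell in both lines, with log2 changes of -1.85 ± 0.068 and -0.62 ± 0.068 (limma adjusted p = 1.2e-11 and 2e-06).

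Mxd1 (chromosome 6, 86647042 to 86669161, minus strand), the founding Mxd gene and a marker of differentiation, went from 4.88, 4.37 and 4.72 RPKM to 2.36, 2.61 and 2.54 RPKM in WT cells. In p53-null cells it went the other way, from 1.35, 1.26 and 1.16 RPKM to 2.56, 2.76 and 2.73 RPKM. The glutamine-free samples of the lines overlapped, although their difference passed in opposite directions under different scalings, as given with the comparison of the lines. Its log2 changes were -0.69 ± 0.045 and 0.71 ± 0.045 (limma adjusted p = 6e-09 and 9.2e-09).

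Mxi1 (chromosome 19, 53310518 to 53375810, plus strand), also called Mxd2, showed the same pair of directions at a smaller size. WT samples went from 9.78, 9.81 and 9.65 RPKM to 5.66, 5.66 and 5.94 RPKM, and p53-null samples from 4.17, 4.06 and 4.28 RPKM to 5.06, 5.07 and 5.19 RPKM. The log2 changes were -0.67 ± 0.026 and 0.24 ± 0.026 (limma adjusted p = 2.4e-11 and 1.9e-06), and median centring gave 0.13 for the p53-null change. Exons on the opposite strand cover 6.06% of the exon bases of Mxd4, 4.43% of those of Mxd3 and 2.84% of those of Mxi1, and the library kit named in the labels does not mark strand. The other members share no exon base with another annotated gene.

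Mnt (chromosome 11, 74830920 to 74845725, plus strand), the broadly expressed Max-binding repressor, had the smallest range of group means among the tested members on the log2 scale. It went from 8.24, 7.99 and 7.84 RPKM to 10.9, 11.3 and 11.4 RPKM in WT cells. The p53-null samples went from 8.56, 8.77 and 9.06 RPKM to 11.1, 10.7 and 10.1 RPKM. Both lines rose to overlapping levels, by log2 changes of 0.43 ± 0.034 and 0.25 ± 0.034 (limma adjusted p = 3.8e-08 and 1.7e-05). The p53-null value was 0.14 with quantile normalization and with median centring.

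Mga (chromosome 2, 119897228 to 119969581, plus strand) encodes a very large protein with a T-box as well as a Max-binding region. It went from 8.53, 8.78 and 8.62 RPKM to 17.4, 17.0 and 17.2 RPKM in WT cells, and from 13.6, 13.5 and 13.3 RPKM to 18.4, 18.6 and 18.7 RPKM in p53-null cells. The log2 changes were 0.92 ± 0.019 and 0.43 ± 0.019 (limma adjusted p = 3e-14 and 2e-10). In mean RPKM this was 1.99-fold in WT and 1.38-fold in p53-null cells.

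In the p53-null line, then, 8 of the 9 tested members rose and Mxd3 fell, where 50.0% of all tested genes rose and 32.0% fell. These background shares depend on the scaling: 61.0% of called genes rose, and 47.6% did so with median centring, which moved the median log2 change of all tested genes from 0.08 to -0.02. The direction of each tested member in each line was the same under every alternative tried. Only Myc rose by 2-fold or more in log2(RPKM + 1) in this line and no member fell by as much, against 1.27% and 2.03% of tested genes.

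**Figure D2:**
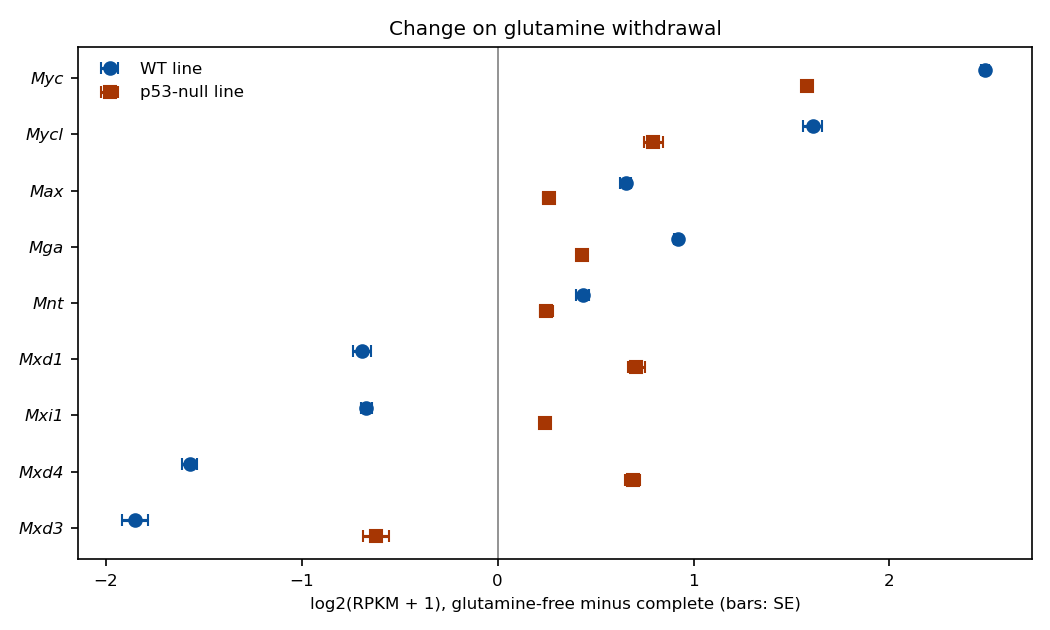
Change of the 9 tested network genes on glutamine withdrawal, as glutamine-free minus complete in log2(RPKM + 1), with SE bars, for the WT line (circles) and the p53-null line (squares). Mxd1, Mxi1 and Mxd4 lie left of 0 in WT and right of 0 in p53-null cells, and Mxd3 lies left of 0 in both.

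The withdrawal responses of the lines differed for each of the 9 tested members. By a contrast of the 2 responses (p53-null minus WT), 4 were higher (Mxd1, Mxd3, Mxd4 and Mxi1) and 5 were lower (Myc, Mycl, Max, Mnt and Mga), where 46.4% of tested genes were higher and 38.4% lower. Median centring moved the median of this contrast over all tested genes from 0.06 to -0.04, with no change in the direction or call of a member. Each WT response was the larger in size of its pair except that of Mxd1, whose changes were of opposite sign and nearly equal size. The smallest difference was that of Mnt, -0.19 ± 0.048 (limma adjusted p = 0.0028).

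The balance of activators and repressors was described by summed RPKM, without a test. Myc, Mycn and Mycl together were 61.25 ± 1.10 RPKM (SD, n = 3) in WT complete, 348 ± 2.55 in WT glutamine-free, 38.9 ± 1.22 in p53-null complete and 117 ± 1.36 RPKM in p53-null glutamine-free samples. Mxd1, Mxd3, Mxd4, Mxi1 and Mnt together were 62.15 ± 0.557, 30.4 ± 1.16, 25.0 ± 0.410 and 30.5 ± 0.970 RPKM in the same order. The repressor sum was thus high in WT complete samples and 24.7 to 31.6 RPKM in each of the other 9 samples. Mga, whose mean was above that of Mnt in every group, was kept out of this sum and of the ratio. The ratio of the sums was 0.986 ± 0.0114 in WT complete, 11.5 ± 0.366 in WT glutamine-free, 1.56 ± 0.0345 in p53-null complete and 3.83 ± 0.129 in p53-null glutamine-free samples. No 2 groups overlapped in this ratio. RNA levels do not give the amounts of the proteins, and Myc protein is known for its short life.

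The composition of the repressor sum, which leaves out Mga, differed as well. In WT complete samples Mxd4 held 35.8 ± 0.260% and Mxd3 28.1 ± 0.399% of it, and Mnt 12.9 ± 0.211%. In the other groups Mnt held the largest share, 36.9 ± 0.778% in WT glutamine-free, 35.2 ± 1.27% in p53-null complete and 34.9 ± 0.846% in p53-null glutamine-free samples.

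**Figure D3:**
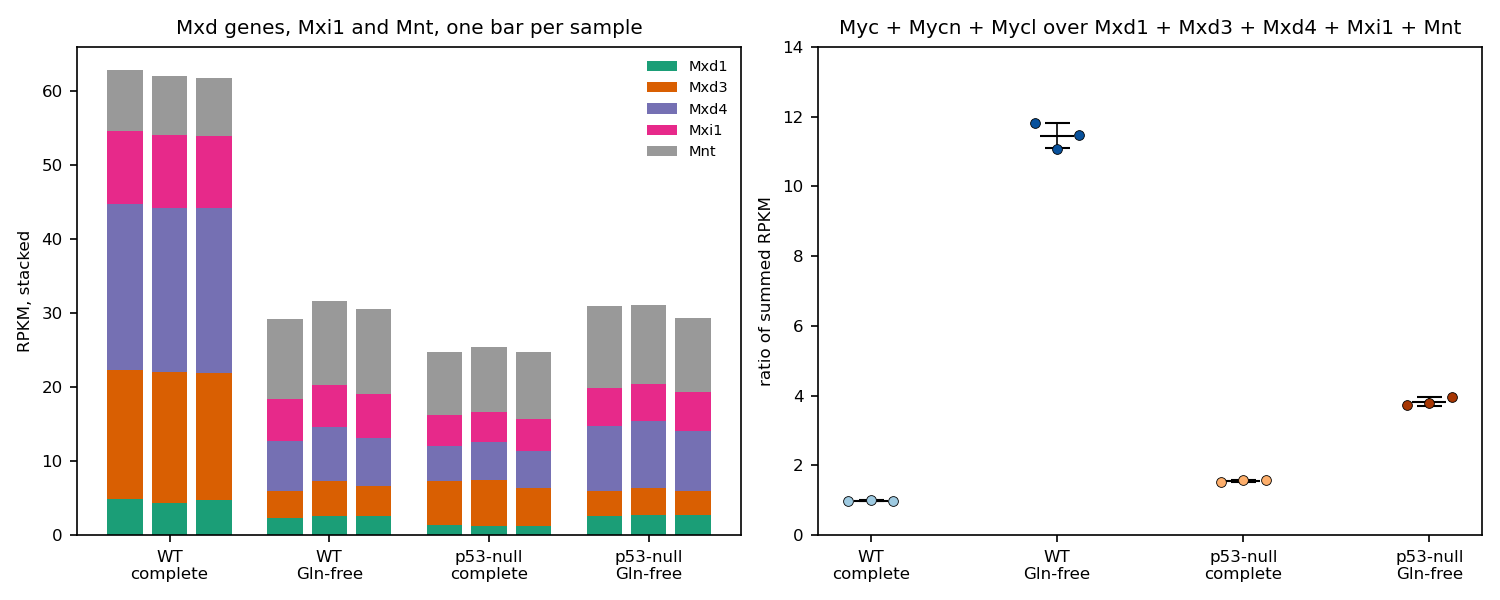
Left, stacked RPKM of Mxd1, Mxd3, Mxd4, Mxi1 and Mnt, 1 bar per sample. Right, the ratio of the summed RPKM of Myc, Mycn and Mycl to that stack, with points for samples, marks for means and bars for the SD (n = 3). The stack is tallest in the WT complete samples (62.15 RPKM on average), and the ratio is highest in the WT glutamine-free samples (11.5).

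The order of levels changed with the medium. In WT complete samples it ran Myc, Mxd4, Mxd3, Max, Mxi1, Mga, Mnt, Mxd1, Mycl and Mycn, with no overlap between neighbours. Without glutamine the WT order began Myc, Max, Mga, Mnt, Mxd4 and Mxi1, and the neighbours Mxd3 and Mycl overlapped. The p53-null samples had the order Myc, Max, Mga, Mnt at the top in both media. In glutamine-free p53-null samples Max (18.6 ± 0.720 RPKM) and Mga (18.5 ± 0.149 RPKM) overlapped, as did Mycl and Mxd3.

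The lines were next compared within a medium. These comparisons use the same samples as those above and are not independent of them. In complete medium the p53-null line had less Myc and less of each Mxd-type gene, and more Mycl, Max, Mga and Mnt: 4 of the 9 tested members were higher and 5 lower, where 48.4% of tested genes were higher and 42.5% lower. Mxd4 was 4.47-fold lower in mean RPKM (log2 difference -1.96 ± 0.039, limma adjusted p = 2.3e-14), Mxd1 3.71-fold (-1.33 ± 0.045, adjusted p = 6.1e-12), Mxd3 3.03-fold (-1.45 ± 0.068, adjusted p = 1.8e-10) and Mxi1 2.34-fold (-1.06 ± 0.026, adjusted p = 2.3e-13). Myc was 1.64-fold lower (-0.70 ± 0.021, adjusted p = 1.4e-12). Mycl was 2.93-fold higher (log2 difference 0.77 ± 0.049, and 1.40 with a pseudocount of 0.1, adjusted p = 4.5e-09), and Mga 1.56-fold higher (0.59 ± 0.019, adjusted p = 3.1e-12). The summed epithelial markers were also higher in the p53-null samples, through Krt18 and Krt19 of 7 listed, and Cdh1 was 0.0630 RPKM there against 0.0965 RPKM in WT. The 5 muscle and neural markers found were lower in sum, at 2.73 to 2.89 against 39.2 to 39.9 RPKM, with Stmn2 listed at 0 in the p53-null samples. Among them Des went the other way, at 1.33 RPKM in p53-null against 0.0405 RPKM in WT. Fibroblast markers other than Vim, Postn, Thy1 and Fap averaged lower in the p53-null samples as well. Of the blood and endothelial markers, Cd68 (7.06 against 1.235 RPKM) and Kdr (1.25 against 0.0106 RPKM) averaged higher, and Cd74 (0.644 against 1.15 RPKM) lower. The part of these markers in the differences was not tested.

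In glutamine-free medium most of these differences were small, apart from that of Myc. Myc was 3.05-fold lower in the p53-null line (log2 difference -1.60 ± 0.021, limma adjusted p = 5.3e-16). Of the 9 tested members 2 were higher and 4 lower, against 51.4% and 40.0% of tested genes. These counts became 1 and 7 with quantile normalization, 1 and 6 with median centring, and 3 and 1 with rescaling to one sum. The remaining members lay between -0.22 ± 0.068 (Mxd3) and 0.30 ± 0.039 (Mxd4) on the log2 scale, and Mycl, Mxd1 and Mnt did not pass (adjusted p = 0.46, 0.14 and 0.069). Most of these small differences moved with the scaling. Median centring and rescaling to one sum moved the median of all tested genes from 0.10 to -0.03 and to 0.21, and the signs of Mycl, Mxd1, Mnt and Mga flipped under at least 1 scaling. Mxd1 passed in opposite directions, at -0.14 with quantile normalization (adjusted p = 0.0093) and 0.16 with rescaling (adjusted p = 0.0037). The calls of Max, Mxd3 and Mxi1 did not hold with rescaling, nor that of Mga with quantile normalization or median centring. Without replicate 1 of the p53-null glutamine-free samples Mycl turned to 0.003 and Mnt passed at -0.10 (adjusted p = 0.018), and without replicate 1 of the WT glutamine-free samples Mnt passed at -0.09 (adjusted p = 0.037). The lower Myc and the higher Mxd4 were called under each alternative tried, but the Mxd4 difference was 0.13 with quantile normalization and 0.17 with median centring.

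**Figure D4:**
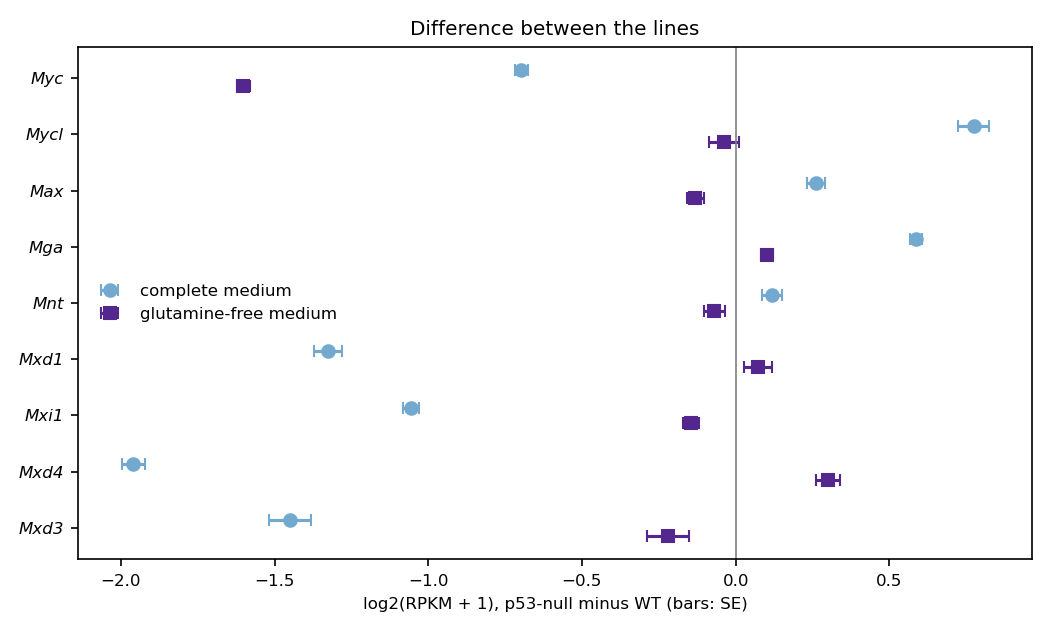
Difference between the lines, as p53-null minus WT in log2(RPKM + 1), with SE bars, in complete medium (circles) and glutamine-free medium (squares) for the 9 tested genes. The 4 Mxd-type genes lie between -1.96 and -1.06 in complete medium and between -0.22 and 0.30 in glutamine-free medium, where Mxd1, Mycl, Mnt and Mga change sign under at least 1 scaling.

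Genes around the network were described from lists of textbook genes. The lists were written with earlier results of these data known, so their counts are a description and not an independent test. In WT cells without glutamine 43 of 50 genes known as activated by Myc rose and 6 fell, where 46.0% of all tested genes rose and 44.0% fell. Their median log2 change was 1.03, against 0.01 over all tested genes. The largest rises in log2(RPKM + 1) were of Rrp12, a ribosome assembly factor, from 2.68 ± 0.0836 to 20.0 ± 0.0281 RPKM, Slc1a5, a glutamine transporter, from 17.2 ± 0.152 to 102.4 ± 3.92 RPKM, and Rrs1, a regulator of ribosome synthesis, from 14.8 ± 0.499 to 69.0 ± 2.10 RPKM. Falls of genes that reached 2 RPKM included Ldha, which makes lactate, from 316 ± 4.4 to 244 ± 3.47 RPKM, Paics, a purine enzyme, from 149.5 ± 1.47 to 119.95 ± 1.91 RPKM, and the prohibitin gene Phb2 from 102.2 ± 1.56 to 91.6 ± 1.53 RPKM. Tert, the telomerase gene, which is below that level and was chosen after its values were seen, fell from 1.07 ± 0.141 to 0.611 ± 0.0706 RPKM, to 57.3% of its level.

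In p53-null cells 32 of these 50 rose and 16 fell (50.0% and 32.0% of all tested genes), with a median of 0.35 against 0.08 (27 and 18 with median centring). Ung, a DNA repair glycosylase, went from 6.93 ± 0.413 to 15.8 ± 0.182 RPKM, the nucleolar gene Nop58 from 63.3 ± 1.29 to 109 ± 1.14 RPKM and Slc1a5 from 27.7 ± 0.314 to 45.7 ± 0.912 RPKM. The cell cycle kinase gene Cdk4 fell from 275 ± 2.26 to 182 ± 4.71 RPKM, the importin gene Ipo4 from 41.1 ± 0.565 to 31.2 ± 0.139 RPKM and the mitochondrial chaperone gene Hspd1 from 403 ± 3.42 to 323 ± 3.03 RPKM, a call that Hspd1 lost with quantile normalization (log2 change -0.05, adjusted p = 0.075). Ldha, Hspd1 and several other listed genes have processed pseudogene copies, and how shared reads were counted is not given in the sources used here. By the contrast of responses, 43 of the 50 were lower and 6 higher in the p53-null line, where 38.4% of all tested genes were lower and 46.4% higher. Between the lines in complete medium, where Myc was lower in the p53-null line, 38 of the 50 were higher there and 10 lower. The shares of all tested genes were 48.4% and 42.5%, and the median log2 difference was 0.55 against 0.05. In glutamine-free medium 13 were higher and 33 lower (51.4% and 40.0% of all tested genes), with a median of -0.26 against 0.105.

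**Figure D5:**
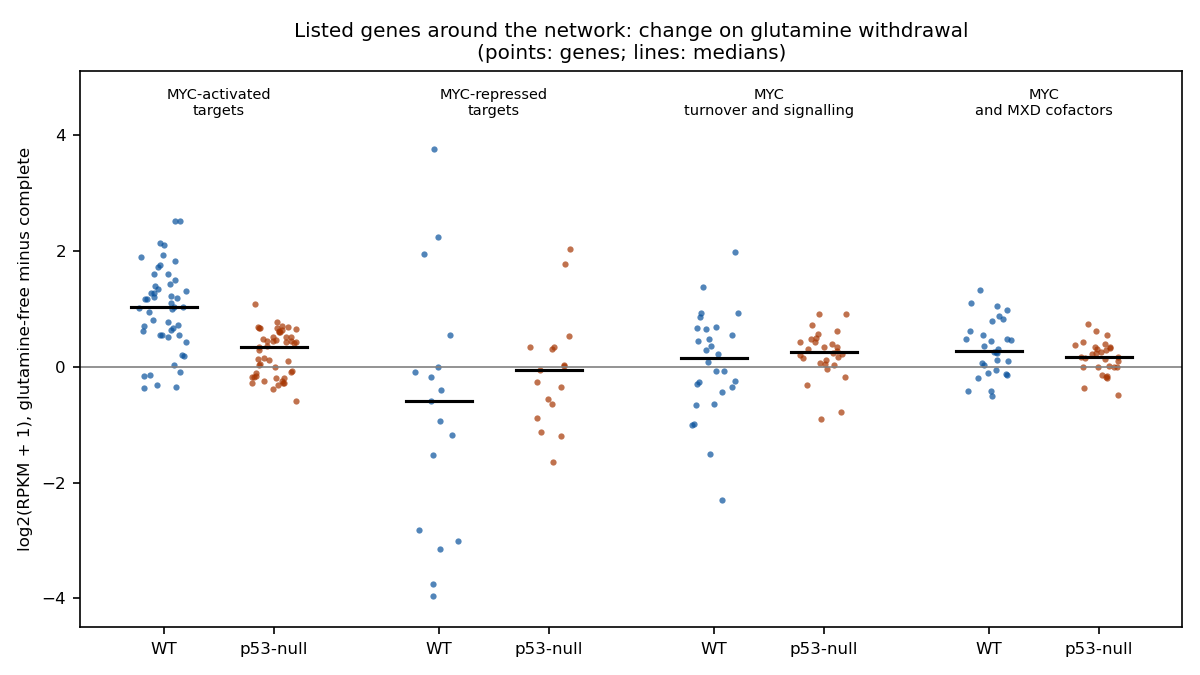
Change on glutamine withdrawal of the tested genes of 4 lists, in log2(RPKM + 1), for the WT and the p53-null line. The lists were written with earlier results of these data known. Points are genes and lines are medians. The median of the 50 Myc-activated genes is 1.03 in WT and 0.35 in p53-null cells, and the 17 tested Myc-repressed genes spread furthest.

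Genes known as repressed by Myc went both ways. Of 17 tested, 4 rose and 11 fell in WT cells, where 46.0% of all tested genes rose and 44.0% fell, with a median of -0.58 against 0.01 in log2(RPKM + 1). In p53-null cells 6 rose and 8 fell, against 50.0% and 32.0% of all tested genes, with a median of -0.05 against 0.08. In WT cells the stress gene Gadd45a rose from 17.8 ± 1.26 to 252 ± 1.56 RPKM, the cell cycle inhibitor gene Cdkn1a from 2.62 ± 0.328 to 16.1 ± 0.261 RPKM and Ndrg1 from 38.3 ± 0.930 to 151 ± 1.83 RPKM. Thbs1, a matrix glycoprotein gene, fell from 88.7 ± 0.814 to 4.75 ± 0.0465 RPKM, the transcription factor gene Cebpd from 31.9 ± 0.860 to 1.45 ± 0.0739 RPKM and Gas1, a growth arrest gene, from 47.1 ± 0.814 to 4.46 ± 0.209 RPKM. Some of these are matrix or fibroblast genes, and the summed fibroblast markers also fell in the same samples. In p53-null cells Gadd45a rose from 18.4 ± 0.934 to 78.7 ± 1.27 RPKM, its relative Gadd45b from 12.1 ± 0.552 to 43.8 ± 0.631 RPKM and Klf6 from 34.4 ± 0.299 to 43.9 ± 0.677 RPKM, while the small heat shock gene Cryab fell from 8.33 ± 0.532 to 1.98 ± 0.253 RPKM, Gas1 from 10.95 ± 0.288 to 4.23 ± 0.121 RPKM and Col1a2 from 29.5 ± 0.619 to 12.9 ± 0.294 RPKM.

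Among 28 genes that modify Myc protein or its stability, 15 rose and 12 fell in WT cells, a split near that of all tested genes (46.0% and 44.0%). In p53-null cells 21 rose and 4 fell (18 and 8 with median centring), against 50.0% and 32.0% of all tested genes. Usp36, a nucleolar deubiquitinase that stabilises Myc, rose in both lines, from 8.69 ± 0.0553 to 37.2 ± 1.13 RPKM in WT and from 12.5 ± 0.130 to 24.4 ± 0.188 RPKM in p53-null cells. Gsk3b, the kinase that marks Myc for degradation, rose in WT cells from 11.5 ± 0.214 to 31.5 ± 0.625 RPKM, and Pim2 from 1.97 ± 0.156 to 4.65 ± 0.157 RPKM. The mitotic kinase genes Plk1 and Aurka, whose products stabilise Myc proteins, fell in WT cells from 33.3 ± 0.531 to 5.97 ± 0.160 and from 35.2 ± 0.530 to 11.7 ± 0.202 RPKM, and Bin1, which encodes a Myc-binding protein, from 17.6 ± 0.403 to 8.30 ± 0.325 RPKM. In p53-null cells the kinase gene Pim3 rose from 10.97 ± 0.352 to 21.4 ± 0.613 RPKM and the deubiquitinase gene Usp37 from 7.24 ± 0.0153 to 12.6 ± 0.103 RPKM. Falls in that line included Plk1, from 25.8 ± 0.856 to 13.3 ± 0.168 RPKM, the ubiquitin ligase gene Stub1, from 77.8 ± 0.843 to 44.7 ± 0.218 RPKM, and Aurka, from 43.8 ± 0.698 to 35.0 ± 0.142 RPKM.

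Of 30 cofactors of Myc, Mxd and Mga proteins, 21 rose and 8 fell in the WT line, against 46.0% and 44.0% of all tested genes, and the median log2 change was 0.28 against 0.01. Wdr5, a chromatin adaptor that binds Myc, went from 19.2 ± 0.341 to 49.6 ± 0.599 RPKM, Pcgf6, a subunit of the Mga complex, from 9.11 ± 0.146 to 20.7 ± 0.0348 RPKM and the actin-related gene Actl6a from 22.2 ± 0.687 to 46.8 ± 0.526 RPKM. Trrap, the acetyltransferase scaffold that Myc recruits, fell from 19.0 ± 0.0217 to 13.03 ± 0.242 RPKM, Sin3a, the corepressor of Mxd proteins, from 21.7 ± 0.263 to 15.9 ± 0.344 RPKM and the DNA methyltransferase gene Dnmt3a from 3.63 ± 0.0278 to 2.46 ± 0.0725 RPKM. In p53-null cells 19 rose and 6 fell, against 50.0% and 32.0% of all tested genes, a split that became 15 and 11 with median centring. Ccnt1, a cyclin of the elongation factor P-TEFb, went there from 16.2 ± 0.0192 to 27.7 ± 0.238 RPKM, and Wdr5 from 33.8 ± 0.0586 to 52.5 ± 0.433 RPKM. Hcfc1, a Myc-binding chromatin factor, fell from 44.5 ± 0.570 to 31.3 ± 0.496 RPKM.

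In the linked Mlx branch Mlxip (MondoA) takes the place of Myc. Of its 4 tested genes 2 rose and 1 fell in WT cells (46.0% and 44.0% of all tested genes) and 3 rose and 0 fell by limma in p53-null cells (50.0% and 32.0%; 3 and 1 with median centring). By the contrast of responses 3 were higher and Mlx was lower in the p53-null line. Txnip, its standard target, fell from 36.5 ± 0.239 to 18.0 ± 0.746 RPKM in WT and rose from 16.9 ± 0.561 to 77.8 ± 0.767 RPKM in p53-null cells, while Mlxip rose from 6.51 ± 0.157 to 8.67 ± 0.095 and from 6.48 ± 0.0217 to 10.1 ± 0.0944 RPKM.

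Finally, genes with a profile like that of a member were ranked among 4969 tested genes with at least 2 RPKM in the highest group and a range of at least 1 on the log2 scale. The ranking used Pearson's r over the 12 samples, which fall into 4 tight groups, so r describes little more than the order and spacing of 4 means. Those most like Myc were Ankrd11, Cpox, Lsm1, Ice1 and Ddr2 (r = 0.998 to 0.999), and 41 genes reached 0.99. Ankrd11, a chromatin regulator gene, averaged 31.9, 79.1, 26.0 and 44.1 RPKM in WT complete, WT glutamine-free, p53-null complete and p53-null glutamine-free samples. Mxd4 had the highest mean over the 12 samples among Mxd1, Mxd3, Mxd4, Mxi1 and Mnt, although Mnt was above it in all groups but WT complete. Those most like Mxd4 were Rras, Gpx8, P3h1, Pla2g15 and Dhx58 (r = 0.987 to 0.996), and 4 genes reached 0.99. Rras, a Ras-related GTPase gene, averaged 40.6, 11.3, 8.70 and 15.7 RPKM in the same order.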

How the data were processed

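RNA of 12 samples was sequenced from libraries of 0.5 ug of total RNA each, per the labels' protocols. The authors deposited RPKM per gene; the submitters' processing notes name CASAVA 1.8, HISAT2 2.0.4, Partek and mm10. Which step each tool ran, the annotation and the counting rules were not given in the sources used here. Depth was sought from the steps between low values: 37.6 to 46.8 M reads fitted best, but 55.4 to 59.7% of values lay within 0.05 of whole reads. Whole reads were thus not recovered, so a count test was not run. Precision is given as the SD over 3 samples for RPKM, sums, shares and ratios. For log2 changes it is the limma SE, from a spread shared by the 4 groups.

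From log2(RPKM + 1), limma 3.58.1 in R 4.3.3 was fitted to the 4 group means with a mean-variance trend, on the 11461 genes that reached 1 RPKM in 3 or more of the 12 samples. Benjamini-Hochberg adjustment ran over all of them, and an adjusted p under 0.05 was called. The fit was tested on simulated data. Coordinates and exon overlaps come from GENCODE M21 on GRCm38, the assembly of mm10, and promoter sequences from RefSeq. Members and lists were chosen with earlier results of these data known. Genes eligible to be named were, per list, line and direction, the 3 called genes that changed most, provided that the samples of the media did not overlap and the higher mean reached 2 RPKM. Of 182 listed symbols 178 were found, 1 by a synonym. The main fit did not pair samples by the replicate numbers in the titles. Alternatives were other pseudocounts (0.1 and 0.5), filters, scalings, variance models and sets of samples, and leaving out each sample.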

Additional observations from a re-analysis of the deposited data

Results flagged for a closer look

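The withdrawal response differed between the lines, by the limma contrast of the responses, for each of the 9 tested members. Most tested genes were called in this contrast, 46.4% of 11461 as higher and 38.4% as lower. The differences, p53-null minus WT in log2(RPKM + 1), were -0.90 for Myc, -0.81 for Mycl, -0.39 for Max, -0.19 for Mnt and -0.49 for Mga. They were 1.40 for Mxd1, 1.23 for Mxd3, 2.26 for Mxd4 and 0.91 for Mxi1. The adjusted p ranged from 6.4e-13 for Mxd4 to 0.0028 for Mnt. For Mxd1, Mxd4 and Mxi1 each line also passed on its own in the opposite direction, and no sample of the glutamine-free group overlapped the complete group of its line. The shares of all tested genes with such opposite responses or with no overlap were not counted. These members therefore cannot be said to stand out in this. Each line stands for 1 genotype, so line and genotype cannot be told apart.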

How the results depend on the processing

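The calls and directions of the 9 tested members were kept under each alternative in both withdrawal comparisons, in complete medium between the lines and in the contrast of responses; the filter at 5 RPKM left 7 members to test. In glutamine-free medium between the lines 17 of 196 values changed. The direction turned for Mxd1 (-0.14 with quantile normalization and -0.062 with median centring), for Mga (-0.035 with median centring), and for Mycl and Mnt (0.058 and 0.043 with rescaling to one sum). Leaving out 1 sample gave Mycl -0.078 to 0.0032, the latter without p53-null glutamine-free replicate 1. The cause was not tested. The contrast for Mycl was -1.45 with a pseudocount of 0.1, and that for Mnt -0.28 with quantile normalization and -0.29 with median centring. The count test on recovered reads was not run.

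Same-numbered samples deviated from their group means with correlations of -0.106 to 0.056 over 12 pairs, so no shared effect of a number was seen. Whether same-numbered samples were handled together cannot be told from this. With the replicate block, 10322 genes were called for withdrawal in WT and 9385 in p53-null cells, and 9 members in each, as without it. Depth is known only roughly, which limits what can be said of Mycn.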

Other observations

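The Myc paralogs were also set against Max, which both arms of the network need. Their summed RPKM was 4.86 ± 0.117 times that of Max in WT complete, 17.1 ± 0.133 times in WT glutamine-free, 2.54 ± 0.135 times in p53-null complete and 6.28 ± 0.319 times in p53-null glutamine-free samples (SD, n = 3). The summed repressors were 4.93 ± 0.0624 times Max in WT complete samples and 1.49 ± 0.0581, 1.63 ± 0.0511 and 1.64 ± 0.0987 times Max in the other groups in that order. In each sample the RNA of the Max-binding genes thus exceeded that of Max itself.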
